A study of Mus musculus with 28 samples.

Results

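The genotype difference between villin-PPARD mice and their wild-type littermates was compared between 2 ages, 55 and 10 weeks, in epithelial cells of the gastric corpus. For each gene the quantity described is the villin-PPARD minus wild-type difference at 55 weeks, less the same difference at 10 weeks, in log2 CPM, where CPM is a gene's count scaled to a common library total. A positive change means that the gene stood higher in villin-PPARD relative to wild-type mice at 55 weeks than at 10 weeks, and a negative change the reverse. A gene or list member is said to rise or fall where this difference did and passed the test, whatever its level did with age. The comparison used 20 of the 28 libraries of the study, 1 per mouse, and every gene that passed a filter on low counts, 15812 of 49492. The groups were villin-PPARD mice at 55 weeks, wild-type littermates at 55 weeks, villin-PPARD mice at 10 weeks and wild-type littermates at 10 weeks, with 5 mice each. No treatment, further allele, strain or sex is named for any of the 4 groups. The remaining 8 libraries, 4 per genotype at 25 weeks, entered the same fit and are used as a description. The villin promoter that drives the transgene is mainly used for intestinal epithelium, and the sources used here do not say which gastric cells express it, which species or form of PPARD it carries, or how many founder lines were used. Cells were scraped by hand, so cells from below the epithelium can be present, and in such bulk RNA fewer cells of a type and less RNA per cell cannot be told apart.

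PPARD belongs to the peroxisome proliferator-activated nuclear receptors. It binds fatty acids and switches on genes of lipid uptake and oxidation. The glands of the gastric corpus hold parietal cells, which secrete acid through the proton pump, chief cells, which secrete pepsinogen and other digestive enzymes, surface mucous (pit) cells, mucous neck cells and endocrine cells. When parietal and chief cells are lost, the corpus can fill with a mucous lineage called spasmolytic polypeptide-expressing metaplasia (SPEM), which is known for Cd44, Clu, Wfdc2 and Muc6. Interferon-stimulated genes are switched on by factors that bind a sequence element in their promoters, MHC class I presents peptides from inside any cell, and MHC class II presents peptides mainly on professional antigen-presenting cells.

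Promoters of 4 genes are shown because their gene groups moved in different ways with age: an interferon-stimulated gene whose genotype difference became smaller, one whose difference did not pass the test for a change, a class II gene and a replication gene whose differences became larger. They are the RefSeq windows of 250 bases before to 50 after the start, build GRCm38.p6. Isg15 lies at chr4:156200769-156201068 on the minus strand, Gbp2 at chr3:142620413-142620712 on the plus strand, H2-Aa at chr17:34287774-34288073 on the minus strand and Mcm5 at chr8:75109259-75109558 on the plus strand. Capitals mark letters of the motif searched on both strands: for Isg15 and Gbp2 the core of the interferon-stimulated response element, GAAA, 2 bases of any kind and GAAA, for H2-Aa the Y box, CTGATTGG, and for Mcm5 an E2F site, TTTCCCGC or TTTGGCGC. In Isg15 the capitals join 3 overlapping matches.
Isg15: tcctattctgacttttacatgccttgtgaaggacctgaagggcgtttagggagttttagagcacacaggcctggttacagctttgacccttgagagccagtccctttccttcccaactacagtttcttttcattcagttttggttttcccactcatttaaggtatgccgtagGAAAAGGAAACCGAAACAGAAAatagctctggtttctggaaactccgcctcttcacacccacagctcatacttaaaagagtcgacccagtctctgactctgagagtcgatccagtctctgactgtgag
Gbp2: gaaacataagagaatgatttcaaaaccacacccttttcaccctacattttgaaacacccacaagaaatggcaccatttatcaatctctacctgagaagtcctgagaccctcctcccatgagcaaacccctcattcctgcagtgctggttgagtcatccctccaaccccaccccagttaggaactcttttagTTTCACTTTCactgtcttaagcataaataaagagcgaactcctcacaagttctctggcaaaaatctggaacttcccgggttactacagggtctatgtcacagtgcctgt
H2-Aa: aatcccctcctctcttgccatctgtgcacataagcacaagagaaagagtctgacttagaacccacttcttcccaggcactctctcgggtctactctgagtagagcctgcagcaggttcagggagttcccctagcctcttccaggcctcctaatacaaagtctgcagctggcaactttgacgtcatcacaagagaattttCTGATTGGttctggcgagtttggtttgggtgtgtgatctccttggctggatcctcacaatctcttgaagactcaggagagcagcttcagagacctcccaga
Mcm5: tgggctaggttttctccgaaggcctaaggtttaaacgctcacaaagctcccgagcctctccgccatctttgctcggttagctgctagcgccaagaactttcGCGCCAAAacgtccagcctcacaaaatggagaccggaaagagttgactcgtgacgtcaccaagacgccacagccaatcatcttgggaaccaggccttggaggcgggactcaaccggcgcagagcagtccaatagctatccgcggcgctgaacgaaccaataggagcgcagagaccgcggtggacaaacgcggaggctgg
The response element core was found for 17 of the 27 interferon-stimulated genes with a RefSeq promoter (63.0%), against 3.82% of the 10997 tested genes with one. It was found for 7 of 12 such genes whose genotype difference became smaller and for 9 of 14 that did not pass, so the letters were present on both sides. The E2F site was found for 9 of 19 replication genes (47.4%) and 0 of 19 mitosis genes, against 3.14% of tested genes. The Y box was found for 3 of 7 class II genes (42.9%), against 6.24%. A match describes the letters in this window and is not a site shown to be used.

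The genotype difference changed between 10 and 55 weeks for 5748 of 15812 genes, 36.4% (edgeR quasi-likelihood, Benjamini-Hochberg adjusted p under 0.05, two-sided). It became more positive for 2905 genes (18.4%) and more negative for 2843 (18%), and the median change over all tested genes was 0.01 on the log2 scale. At 55 weeks 9380 genes differed by genotype (59.3%), 31.7% higher and 27.6% lower in villin-PPARD mice. At 10 weeks 5380 did (34.0%), 17.9% higher and 16.2% lower. Among the genes called for the change, 3286 (57.2%) differed by genotype at 55 weeks only, 903 (15.7%) differed at both ages in 1 direction and more widely at 55 weeks, and 732 (12.7%) differed at 10 weeks only. A further 524 (9.12%) differed at both ages in opposite directions, 141 (2.45%) differed at both ages but by less at 55 weeks, and 162 (2.82%) passed at neither age. Of the 141 genes whose difference narrowed, 135 were higher in villin-PPARD mice at both ages.

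**Figure D1:**
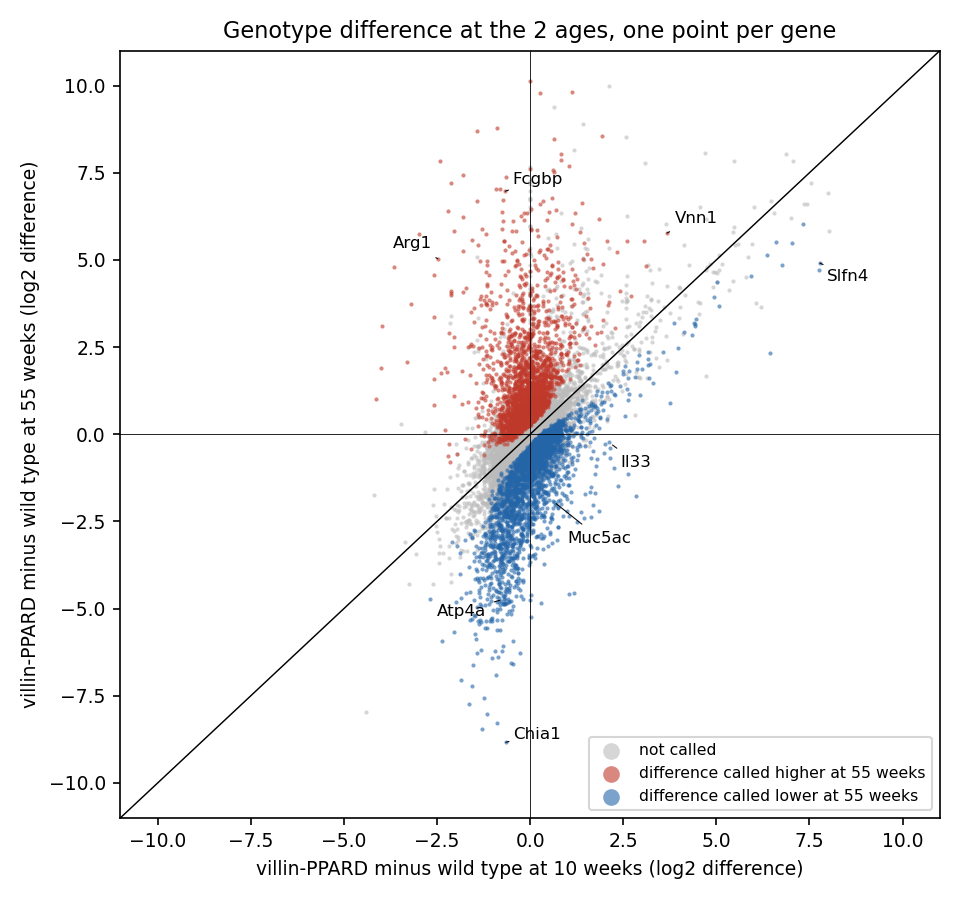
Genotype difference (villin-PPARD minus wild type, log2) of each of the 15812 tested genes at 55 weeks, on the vertical axis, and at 10 weeks, on the horizontal axis, with the line of equality. The 2905 genes with a higher and 2843 with a lower difference at 55 weeks lie above and below that line, and Slfn4 lies far to the right and below it.

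**Figure D2:**
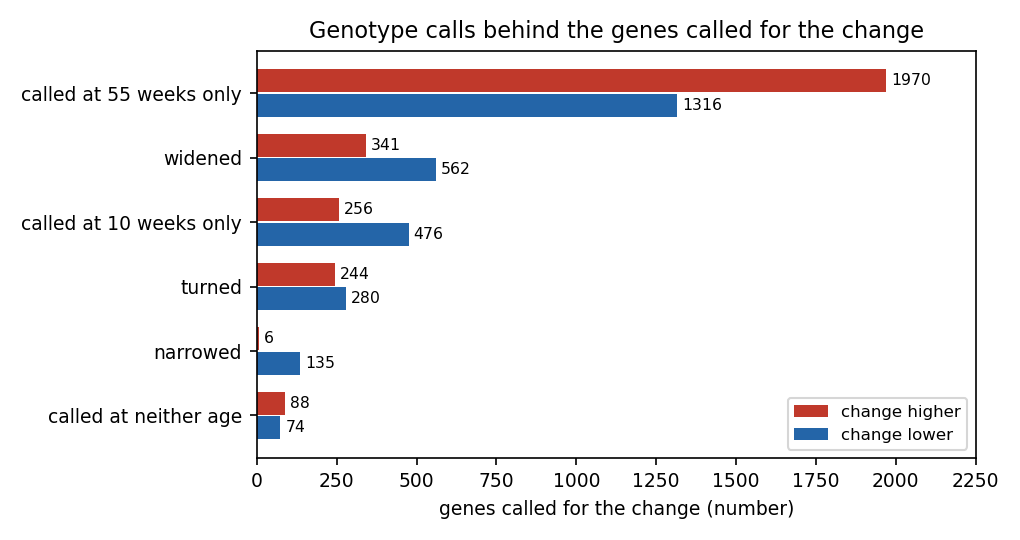
Number of genes called for the change, split by the genotype calls at the 2 ages and by the direction of the change. The largest class holds genes that differed by genotype at 55 weeks only, 1970 with a higher and 1316 with a lower difference.

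Split by genotype, 4394 of the 5748 genes (76.4%) were called for age in villin-PPARD mice and not in wild-type mice, 328 (5.71%) in wild-type and not in villin-PPARD mice, 694 (12.1%) in both and 332 (5.78%) in neither. Of the 694, 294 moved in opposite directions. Over all tested genes, 8178 (51.7%; 27.2% higher and 24.5% lower) were called for age in villin-PPARD and 2007 (12.7%; 6.43% higher and 6.26% lower) in wild-type mice. The wild-type count depended on the libraries: it was 1299 without wild-type replicate 1 of 10 weeks, 1203 without wild-type replicate 2 of 55 weeks and 243 among libraries of the second library group described next. The 25-week libraries belong to the first library group, except 1 marked as a replacement, and all 55-week libraries to the second. Between 25 and 55 weeks age and library group therefore change together, while the 10-week libraries lie in both groups. The part of library group in the course over 3 ages was not tested. Among the genes whose difference widened, the median difference was 0.48 at 10, 0.70 at 25 and 1.39 at 55 weeks for the 341 that were higher, and -0.76, -0.97 and -2.52 for the 562 that were lower. This class was chosen for a larger difference at 55 than at 10 weeks, so the order of the medians at those ages was fixed beforehand.

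The 20 libraries held 12103749 to 30891108 counts. The share of counts from mitochondrially encoded genes was 3.24 ± 1.30% in villin-PPARD and 11.9 ± 5.47% in wild-type libraries at 55 weeks (SD, n = 5, two-sided exact permutation p = 0.0079). In 10-week libraries it was 3.04 ± 1.25% in villin-PPARD and 8.55 ± 2.78% in wild-type mice (SD, n = 5, exact permutation p = 0.0159). The share of the 10 most abundant genes was 14.6 ± 0.617% in villin-PPARD and 33.3 ± 2.73% in wild-type libraries at 55 weeks, against 27.7 ± 1.96% in villin-PPARD and 34.5 ± 2.26% in wild-type libraries of 10 weeks (SD, n = 5, exact permutation p = 0.0079 for either age). All 8 such tests stayed on the same side of 0.05 after adjustment over the 8, and 0.00794 is the smallest p that 5 against 5 mice allow. Scaled by library totals alone, the median change over all genes was 0.37, 7456 genes were called and 79.6% of them were higher, against 50.5% under the TMM scaling used here. The deposited column names put 10-week replicates 1 to 3 in a first library group and 10-week replicates 4 and 5 with all 55-week libraries in a second. Within the second group 3636 genes were called, 3364 of them shared with the 5748 and 0 of those in the opposite direction. That fit uses part of the same libraries, so shared calls were unlikely to differ in direction. Wild-type replicates 2 and 3 of 10 weeks differed less from each other than any other pair did, with a chi-square per degree of freedom of 4.26 against 15.1 or more, and are treated as separate mice.

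Ppard and Vil1 were examined first. Ppard lies at chromosome 17, 28232700 to 28301474 (GRCm38). Ppard was measured at 84.8, 102, 93.8, 98.9 and 87.2 CPM in the villin-PPARD libraries of 55 weeks, against 85.6, 83.1, 72.2, 80.3 and 75.9 CPM in the wild-type libraries of that age. Ppard was at 125, 112, 101, 108 and 102 CPM in villin-PPARD libraries of 10 weeks, against 83.6, 66.1, 65.7, 74.6 and 80.6 CPM in wild-type libraries. The villin-PPARD libraries lay above all wild-type libraries at 10 weeks and overlapped them at 55 weeks. The log2 difference was 0.23 ± 0.09 at 55 weeks and 0.56 ± 0.09 at 10 weeks, and the change was -0.33 ± 0.13 (SE, adjusted p = 0.0443). The change did not hold as a call: it passed in 8 of the 20 fits that left out 1 library, had an adjusted p of 0.351 within the second library group, and was 0.03 when scaled by library totals alone. Reads of the transgene are counted for Ppard only as far as its sequence matches the mouse gene, which the files do not show. Vil1 (chromosome 1, 74409376 to 74435559) encodes villin, the actin-bundling protein of microvilli whose promoter the transgene borrows. Vil1 was measured at 382, 441, 458, 407 and 466 CPM in the villin-PPARD libraries of 55 weeks, against 55.6, 41.9, 42.0, 41.3 and 41.3 CPM in the wild-type libraries of that age. Vil1 was at 156, 119.8, 110.2, 164 and 159.5 CPM in villin-PPARD libraries of 10 weeks, against 38.4, 26.9, 28.1, 42.1 and 49.0 CPM in wild-type libraries. The genotypes did not overlap at either age. Its difference was 3.28 ± 0.20 at 55 weeks and 1.95 ± 0.19 at 10 weeks, and the change was 1.33 ± 0.26 (SE, adjusted p = 1.98e-04).

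Markers of the acid- and enzyme-secreting lineages fell. Of 21 parietal cell markers 16 had a lower and 2 a higher difference at 55 weeks, against 18% and 18.4% of all genes, with a median change of -2.45, and the median genotype difference was -2.66 at 55 weeks and -0.57 at 10 weeks. The summed level of the list was 3389.6 to 4979.5 CPM in villin-PPARD libraries and 11253 to 15389.9 CPM in wild-type libraries of 55 weeks, and 16083 to 18603 CPM in villin-PPARD and 21454 to 23746 CPM in wild-type libraries of 10 weeks. Atp4a (chromosome 7, 30712209 to 30725534) encodes the catalytic subunit of the gastric proton pump. Atp4a was measured at 279.8, 278, 102, 101 and 162 CPM in the villin-PPARD libraries of 55 weeks, against 3732, 3634, 5551, 6421 and 5032 CPM in the wild-type libraries of that age. Atp4a was at 6562, 6982, 6301, 5804 and 7298 CPM in villin-PPARD libraries of 10 weeks, against 10167, 11146, 11327, 9874 and 11059 CPM in wild-type libraries. Every villin-PPARD library lay below every wild-type library at both ages, and the villin-PPARD libraries of 55 weeks stood far below all others. The difference of Atp4a was -4.72 ± 0.28 at 55 weeks and -0.70 ± 0.24 at 10 weeks, and the change was -4.02 ± 0.35 (SE, adjusted p = 6.49e-10). Atp4b, the pump's other subunit, changed by -4.10 ± 0.40, Kcne2, a subunit of the potassium channel the pump needs, by -4.11 ± 0.34, and Hrh2, the histamine receptor that triggers acid secretion, by -3.89 ± 0.25 (SE, adjusted p = 1.96e-12). The potassium channel genes Kcnj16 (-3.62 ± 0.25) and Kcnj15 (-2.45 ± 0.17) fell as well. The 2 markers with a higher difference were Kcnq1 (0.75 ± 0.21), the pore of that potassium channel, and Chrm3 (0.71 ± 0.24), a muscarinic receptor, both also found in other cells. Levels also dropped with age in wild-type mice, where 16 of the 21 markers were lower at 55 than at 10 weeks (background 6.26%), with a median of -0.70, against -2.86 in villin-PPARD mice. Within the second library group the list counted 0 higher and 14 lower.

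Chief cell markers had the most negative median of the 33 lists. Of 12 tested members, 10 had a lower and 0 a higher difference at 55 weeks, against 18% and 18.4% of all genes, with a median change of -4.05. The summed level of the 15 listed genes was 351 to 1394 CPM in villin-PPARD libraries and 26018 to 99115 CPM in wild-type libraries of 55 weeks, and 61318 to 82931 CPM in villin-PPARD and 77441 to 165248 CPM in wild-type libraries of 10 weeks. Pgc (chromosome 17, 47726842 to 47734482) encodes pepsinogen C, the precursor of a gastric protease. Pgc was measured at 1212, 996, 385, 271 and 552 CPM in the villin-PPARD libraries of 55 weeks, against 18482, 57440.5, 68662, 66754 and 44049.7 CPM in the wild-type libraries of that age. Pgc was at 48209, 59864, 52067, 44681 and 49952 CPM in villin-PPARD libraries of 10 weeks, against 59285, 104096, 104119, 102032 and 116702 CPM in wild-type libraries. The genotypes were separated at 55 weeks and overlapped at 10 weeks through wild-type replicate 1. The difference of Pgc was -6.22 ± 0.44 at 55 weeks and -0.93 ± 0.35 at 10 weeks, and the change was -5.29 ± 0.53 (SE, adjusted p = 6.59e-09). Chia1 (chromosome 3, 106113229 to 106132120), acidic chitinase, had the most negative change of the genes named here. Chia1 was measured at 27.6, 27.3, 7.97, 4.84 and 26.2 CPM in the villin-PPARD libraries of 55 weeks, against 2512, 10622, 11738, 11117 and 6944 CPM in the wild-type libraries of that age. Chia1 was at 6853, 10126, 7322, 7270.4 and 8394 CPM in villin-PPARD libraries of 10 weeks, against 5481, 10425, 11402, 16882 and 18637 CPM in wild-type libraries. The villin-PPARD libraries of 55 weeks were at 27.6 CPM or less, and the libraries of the other groups at 2512 CPM or more. Its change was -8.18 ± 0.74 (SE, adjusted p = 4.10e-09). Changes of similar kind were measured for Gif (-6.04 ± 0.56), intrinsic factor for vitamin B12, Clps (-6.33 ± 0.56), a lipase cofactor, and Cckar (-5.47 ± 0.39), a cholecystokinin receptor. The 2 members that did not pass were Cym (-1.36 ± 0.57) and Amy2b, which rested on 1 count over the villin-PPARD and 235 over the wild-type libraries of 55 weeks, and 2 over the villin-PPARD and 54 over the wild-type libraries of 10 weeks.

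Of 20 endocrine cell markers 13 had a lower and 1 a higher difference, against 18% and 18.4% of all genes, with a median change of -2.29. Sst (chromosome 16, 23889573 to 23890958) encodes somatostatin, the hormone by which D cells restrain acid secretion. Sst was measured at 2.11, 2.82, 1.69, 1.04 and 1.49 CPM in the villin-PPARD libraries of 55 weeks, against 56.8, 79.8, 108, 104 and 97.4 CPM in the wild-type libraries of that age. Sst was at 54.6, 72.4, 76.2, 58.8 and 58.5 CPM in villin-PPARD libraries of 10 weeks, against 80.0, 115, 116, 133 and 151 CPM in wild-type libraries. Villin-PPARD libraries lay below wild-type libraries at both ages, with 265 counts in all 5 of the 55-week libraries together. Its difference was -5.62 ± 0.30 at 55 weeks and -0.89 ± 0.23 at 10 weeks, and the change was -4.73 ± 0.37 (SE, adjusted p = 2.49e-10). Ghrl, the appetite hormone ghrelin, changed by -3.06 ± 0.42, Chga, a secretory granule protein, by -3.35 ± 0.36, and Hdc, the enzyme that makes histamine, by -1.89 ± 0.30 (SE). The marker that rose was Slc18a1 (2.12 ± 0.45), a vesicular monoamine transporter, whereas its relative Slc18a2 changed by -2.95 ± 0.38. The median genotype difference of the list was -2.34 at 55 weeks and -0.71 at 10 weeks.

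Surface mucous markers fell from a median genotype difference near 0 at 10 weeks. The median genotype difference of the 16 markers was -0.97 at 55 weeks and 0.13 at 10 weeks. Of the 16, 12 had a lower and 0 a higher difference at 55 weeks, against 18% and 18.4% of all genes. Muc5ac (chromosome 7, 141788972 to 141819231) encodes the main surface mucin of the stomach. Muc5ac was measured at 1574, 7159.9, 4494, 3272 and 4484 CPM in the villin-PPARD libraries of 55 weeks, against 18625, 13839.5, 14520.5, 20222 and 11974 CPM in the wild-type libraries of that age. Muc5ac was at 29912, 23471, 23063, 23698 and 26451 CPM in villin-PPARD libraries of 10 weeks, against 18850.4, 13812, 13801, 16991 and 19281 CPM in wild-type libraries. Villin-PPARD libraries lay below all wild-type libraries at 55 weeks and above all of them at 10 weeks. The difference of Muc5ac was -1.92 ± 0.25 at 55 weeks and 0.61 ± 0.24 at 10 weeks, and the change was -2.53 ± 0.35 (SE, adjusted p = 1.06e-06). Psca (-2.44 ± 0.23), a surface antigen, and the calpain protease genes Capn9 (-2.61 ± 0.27) and Capn8 (-2.16 ± 0.26) also fell. Gkn1, gastrokine 1, averaged 11162 ± 4139 CPM in villin-PPARD and 56029.9 ± 11132 CPM in wild-type mice at 55 weeks, and 40126 ± 2920.2 CPM in villin-PPARD and 51081 ± 11279 CPM in wild-type mice at 10 weeks (SD, n = 5 each). Tff1, a trefoil peptide of surface mucus, changed by -1.10 ± 0.22 (SE, adjusted p = 2.08e-04).

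**Figure D3:**
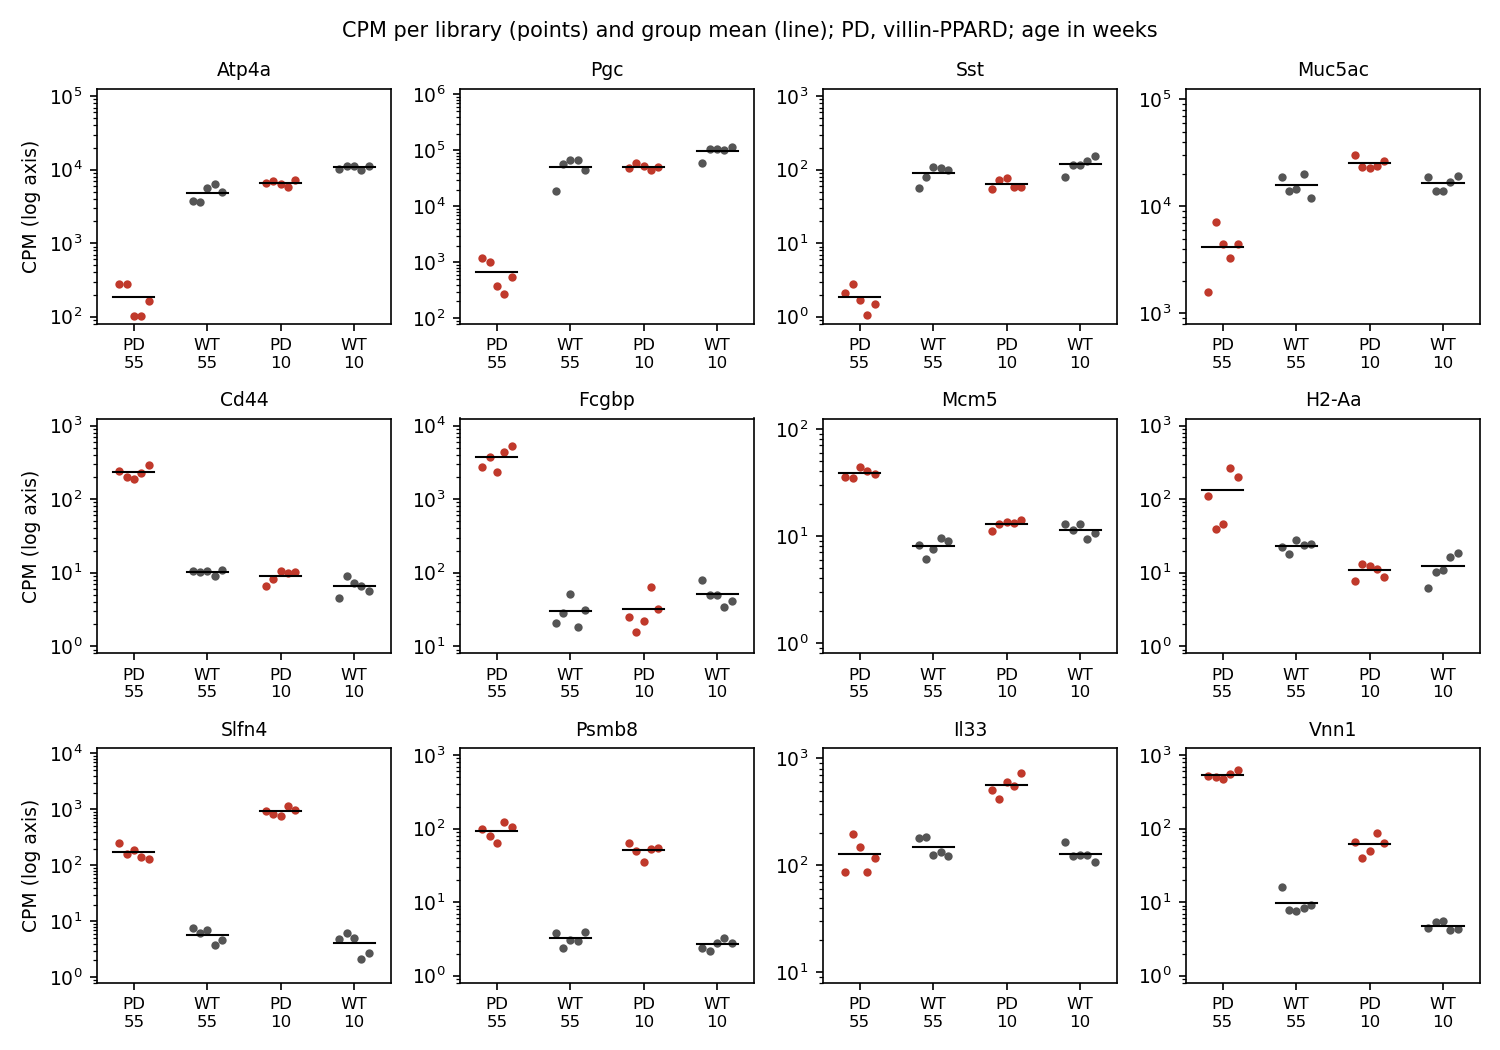
CPM of 12 genes in each of the 5 libraries per group, on log axes, with the group mean as a line; PD stands for villin-PPARD and ages are in weeks. Atp4a, Pgc and Sst are lowest in villin-PPARD mice at 55 weeks, Slfn4 and Il33 are highest in villin-PPARD mice at 10 weeks, and Psmb8 is high in villin-PPARD mice at both ages.

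Mucous neck and SPEM markers split in direction. Of 20 members 14 had a higher and 4 a lower difference at 55 weeks, against 18.4% and 18% of all genes, with a median change of 1.94. Cd44 (chromosome 2, 102811141 to 102901665) encodes a hyaluronan receptor. Cd44 was measured at 242, 203, 188, 229 and 289.8 CPM in the villin-PPARD libraries of 55 weeks, against 10.6, 10.3, 10.6, 8.92 and 10.8 CPM in the wild-type libraries of that age. Cd44 was at 6.49, 8.10, 10.7, 9.75 and 10.2 CPM in villin-PPARD libraries of 10 weeks, against 4.46, 8.96, 7.30, 6.51 and 5.54 CPM in wild-type libraries. All villin-PPARD libraries of 55 weeks were at 188 CPM or more and all other libraries at 10.8 CPM or less. The difference of Cd44 was 4.49 ± 0.24 at 55 weeks and 0.47 ± 0.23 at 10 weeks, and the change was 4.03 ± 0.32 (SE, adjusted p = 3.38e-10). Olfm4, a secreted glycoprotein of intestinal stem cells, changed by 5.84 ± 0.48, Cd14, the co-receptor for bacterial lipopolysaccharide, by 4.49 ± 0.34, Cftr, the chloride channel, by 4.90 ± 0.84, and Sox9, a progenitor transcription factor, by 2.07 ± 0.24. The members that fell were Muc6 (-2.33 ± 0.44), the gland mucin of neck cells, Aqp5 (-2.31 ± 0.35), a water channel, Cxcl17 (-1.09 ± 0.16), a chemokine, and Agr2 (-0.97 ± 0.16), a disulfide isomerase of mucin folding. Muc6 averaged 221 ± 127 CPM in villin-PPARD and 692 ± 168 CPM in wild-type mice at 55 weeks, and 1166 ± 282 CPM in villin-PPARD and 726 ± 139 CPM in wild-type mice at 10 weeks (SD, n = 5 each). Tff2, the spasmolytic polypeptide itself, did not pass, with a change of -0.43 ± 0.27 (SE, adjusted p = 0.236).

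Genes of the intestinal epithelium did not move as one group. Of 32 listed genes 23 passed the filter, and 11 had a higher and 8 a lower difference at 55 weeks, against 18.4% and 18% of all genes. The intestinal master regulators Cdx1 and Cdx2 were among the 9 that did not pass it. Fcgbp (chromosome 7, 28071236 to 28120862) encodes a large protein of secreted mucus. Fcgbp was measured at 2742, 3745, 2311, 4384 and 5289 CPM in the villin-PPARD libraries of 55 weeks, against 20.6, 27.9, 50.5, 18.1 and 31.3 CPM in the wild-type libraries of that age. Fcgbp was at 24.9, 15.6, 22.2, 64.4 and 31.8 CPM in villin-PPARD libraries of 10 weeks, against 78.5, 49.3, 49.7, 34.0 and 41.0 CPM in wild-type libraries. The villin-PPARD libraries of 55 weeks were at 2311 CPM or more, and no other library exceeded 78.5 CPM. Its difference was 6.97 ± 0.61 at 55 weeks and -0.67 ± 0.49 at 10 weeks, and the change was 7.64 ± 0.76 (SE, adjusted p = 1.89e-08). The chloride channel regulator gene Clca1 (4.46 ± 0.73), the transmembrane mucin gene Muc13 (4.33 ± 0.47) and the goblet cell peptide gene Tff3 (2.77 ± 0.45) also rose, while the goblet mucin gene Muc2 (-2.78 ± 0.47), the apolipoprotein genes Apoa1 (-4.22 ± 0.38) and Apoa4 (-4.25 ± 0.43) and the brush border peptidase gene Anpep (-3.13 ± 0.35) fell. Fabp1, a fatty acid binding protein of enterocytes, was near 0.999 CPM in villin-PPARD and 1.08 CPM in wild-type mice at 55 weeks.

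Among 15 tight junction genes 5 rose and 1 fell, a share near the 36.4% of all genes that changed. Cldn7 (chromosome 11, 69964779 to 69967885), an epithelial claudin, showed the pattern of Cd44. Cldn7 was measured at 251, 284, 264, 276 and 329 CPM in the villin-PPARD libraries of 55 weeks, against 10.1, 5.40, 6.15, 7.79 and 6.95 CPM in the wild-type libraries of that age. Cldn7 was at 7.00, 5.52, 6.24, 8.43 and 7.26 CPM in villin-PPARD libraries of 10 weeks, against 4.85, 4.77, 5.17, 3.96 and 4.62 CPM in wild-type libraries. The genotypes were separated at both ages, by a narrow margin at 10 weeks and by more than an order of magnitude at 55 weeks. The change of Cldn7 was 4.69 ± 0.60 (SE, adjusted p = 1.13e-06). Cldn2, which forms cation pores, changed by 6.16 ± 0.64, and Cldn8 by -3.74 ± 0.56, while the stomach claudin Cldn18 did not pass (-0.31 ± 0.17). Markers of squamous epithelium, which lines the forestomach, had a higher difference in 6 of 10 tested members, against 18.4% of all genes. By genotype, 4 of the 10 were called higher and 3 lower in villin-PPARD mice at 55 weeks, and 0 higher and 2 lower at 10 weeks. Their level was low: summed, it was 53 to 91.2 CPM in villin-PPARD libraries and 9.73 to 21.3 CPM in wild-type libraries of 55 weeks, and 2.52 to 4.32 CPM in villin-PPARD and 3.59 to 8.06 CPM in wild-type libraries of 10 weeks. The count of 6 became 3 without wild-type replicate 3 of 10 weeks and 1 within the second library group, and the part of forestomach tissue in these libraries was not tested. A squamous marker high only in villin-PPARD mice of 55 weeks can pass the filter on low counts, so the share may partly follow from it.

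The genes of cell division moved almost as a body. Of 24 DNA replication genes 23 had a higher and 1 a lower difference at 55 weeks, with a median change of 1.45, and all 24 mitosis genes had a higher difference, with a median of 1.11, against 18.4% of all genes. Mcm5 (chromosome 8, 75109569 to 75128439), whose promoter is shown above, encodes a subunit of the replicative helicase. Mcm5 was measured at 35.6, 35.0, 44.0, 40.0 and 37.8 CPM in the villin-PPARD libraries of 55 weeks, against 8.21, 6.14, 7.57, 9.51 and 9.04 CPM in the wild-type libraries of that age. Mcm5 was at 11.1, 12.8, 13.4, 13.1 and 14.1 CPM in villin-PPARD libraries of 10 weeks, against 12.9, 11.4, 12.9, 9.38 and 10.7 CPM in wild-type libraries. All villin-PPARD libraries of 55 weeks were at 35.0 CPM or more, and the 10-week genotypes overlapped. Its difference was 2.24 ± 0.12 at 55 weeks and 0.17 ± 0.12 at 10 weeks, and the change was 2.07 ± 0.17 (SE, adjusted p = 1.78e-10). The helicase genes Mcm4 (1.80 ± 0.16) and Mcm2 (1.78 ± 0.17), the cyclin gene Ccne1 (2.24 ± 0.21) and the ribonucleotide reductase gene Rrm2 (1.77 ± 0.18) rose. The exception was Gins1 (-1.26 ± 0.18), a replication fork component that was higher in villin-PPARD mice by 0.33 at 55 weeks and 1.60 at 10 weeks. Among mitosis genes the lowest adjusted p belonged to Kif23 (1.69 ± 0.18), a kinesin of cytokinesis, and Top2a (1.43 ± 0.18), topoisomerase II. Mki67, the common proliferation marker, had the smallest change of that list, 0.65 ± 0.21 (SE, adjusted p = 0.0148), and was already higher in villin-PPARD mice at 10 weeks by 0.51 ± 0.15. Of the 24 genes in each list, 21 replication and 17 mitosis genes rose within the second library group.

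**Figure D4:**
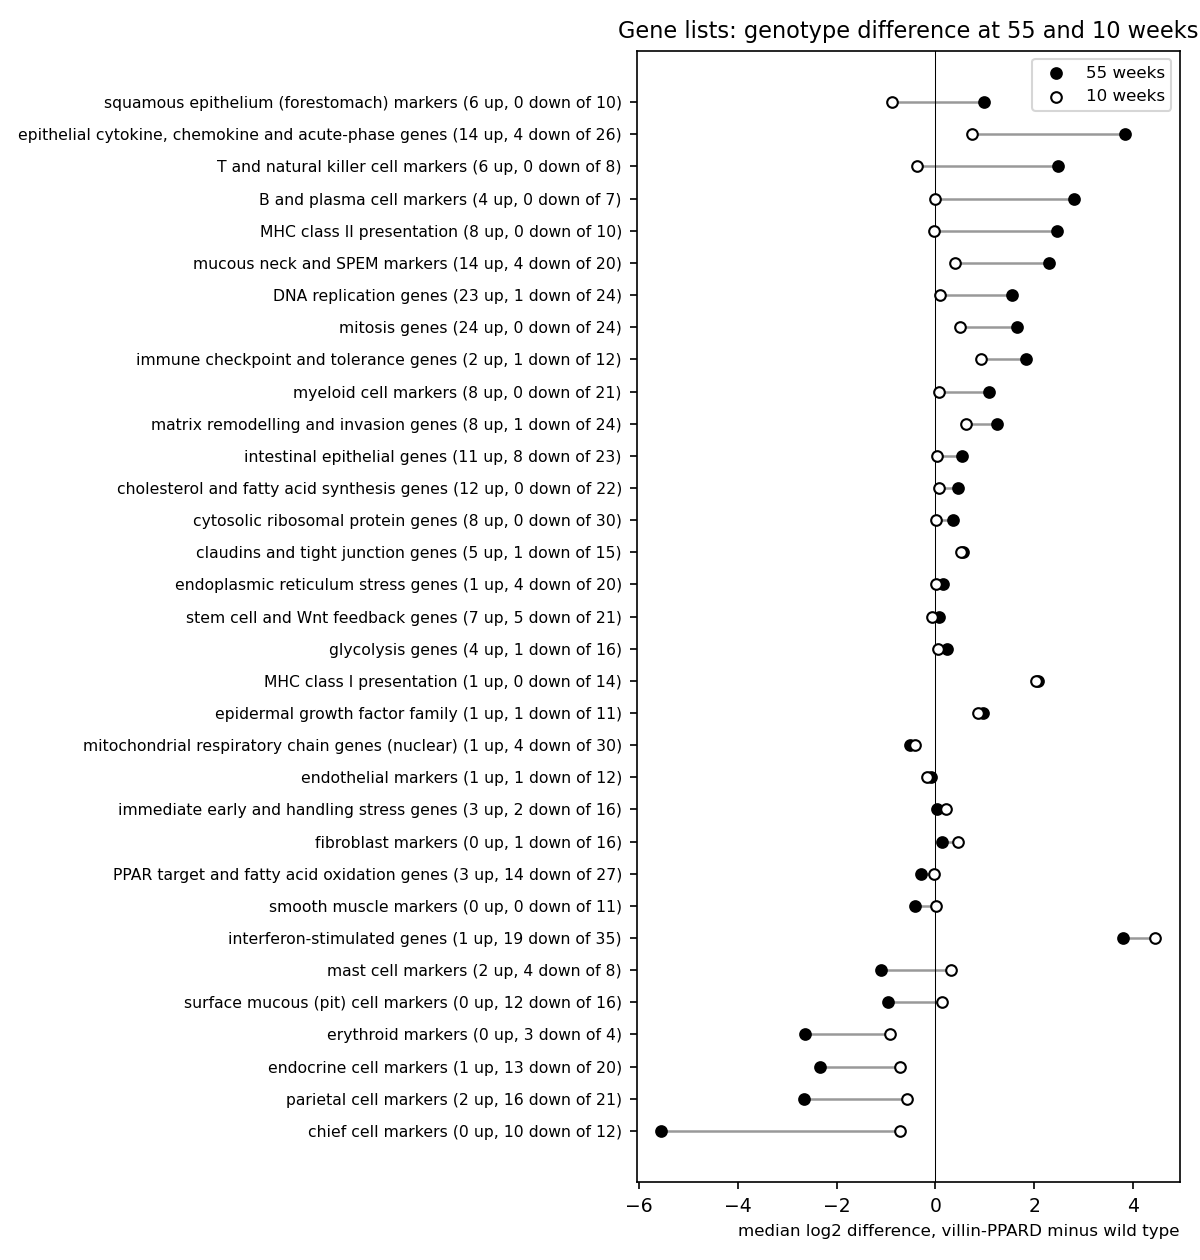
Median genotype difference (villin-PPARD minus wild type, log2) over the tested members of 33 gene lists at 55 weeks, filled points, and at 10 weeks, open points, with the number of members called for a higher or lower difference at 55 weeks. Chief cell markers have the longest line toward lower values, and the 2 points of MHC class I presentation lie on each other at 2.06 and 2.04.

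Interferon-stimulated genes were higher in villin-PPARD mice at both ages, and most that changed differed by less at 55 weeks. All 35 genes of the list were called higher in villin-PPARD mice at 55 weeks and 34 at 10 weeks, against 31.7% and 17.9% of all genes. But 19 had a lower and 1 a higher difference at 55 than at 10 weeks, against 18% and 18.4% of all genes. The median genotype difference was 3.78 at 55 weeks and 4.44 at 10 weeks. In the 25-week libraries it was 4.96, above both. Between 25 and 55 weeks age and library group change together, so the 2 cannot be told apart in that step. The summed level of the list was 3541 to 3889.5 CPM in villin-PPARD libraries and 468 to 594 CPM in wild-type libraries of 55 weeks, and 5975 to 7976 CPM in villin-PPARD and 366 to 707 CPM in wild-type libraries of 10 weeks. Slfn4 (chromosome 11, 83175186 to 83190216), a Schlafen family gene of myeloid cells, had the most negative change. Slfn4 was measured at 248, 162, 190.3, 140.1 and 128 CPM in the villin-PPARD libraries of 55 weeks, against 7.51, 6.14, 7.13, 3.71 and 4.62 CPM in the wild-type libraries of that age. Slfn4 was at 932, 836, 752, 1143 and 980.2 CPM in villin-PPARD libraries of 10 weeks, against 4.76, 6.26, 4.96, 2.08 and 2.69 CPM in wild-type libraries. The genotypes were far apart at both ages, and the villin-PPARD libraries of 55 weeks lay below those of 10 weeks without overlap. The difference of Slfn4 was 4.91 ± 0.30 at 55 weeks and 7.78 ± 0.34 at 10 weeks, and the change was -2.87 ± 0.39 (SE, adjusted p = 1.68e-06). Isg15, the ubiquitin-like protein whose promoter is shown above, gave 60.4, 91.5, 87.6, 49.2 and 57.2 CPM in villin-PPARD libraries of 55 weeks, against 4.65, 2.81, 1.69, 2.13 and 3.14 CPM in wild-type libraries. Isg15 was at 286, 238, 172, 257 and 267 CPM in villin-PPARD libraries of 10 weeks, against 8.87, 3.18, 3.27, 1.88 and 2.18 CPM in wild-type libraries. Its change was -1.38 ± 0.46 (SE, adjusted p = 0.0208). It lost the call without wild-type replicate 1 of 55 weeks, where its adjusted p was 0.0769. The RNA sensor gene Ddx58 (-1.32 ± 0.22), the antiviral GTPase gene Mx1 (-1.51 ± 0.26) and the transcription factor gene Stat2 (-1.01 ± 0.18) narrowed as well. The exception was Cxcl10, a chemokine that attracts T cells, which was called higher in villin-PPARD mice at 55 weeks only and averaged 1.27 ± 1.24 CPM in villin-PPARD and 0.0562 ± 0.0372 CPM in wild-type mice at 55 weeks, and 0.184 ± 0.0817 CPM in villin-PPARD and 0.238 ± 0.132 CPM in wild-type mice at 10 weeks (SD, n = 5 each). Cxcl10 lost the call without villin-PPARD replicate 1, 4 or 5 of 55 weeks. Gbp2, a GTPase that responds strongly to interferon gamma, did not pass (1.29 ± 0.57). Within the second library group the list counted 1 higher and 27 lower, and when scaled by library totals alone 2 higher and 13 lower. The list's median over age was -0.88 in villin-PPARD and 0.02 in wild-type mice.

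In the MHC class I pathway, which interferons also induce, 1 of 14 members passed the test for a change, against 36.4% of all genes. All 14 members were higher in villin-PPARD mice at both ages, with medians of 2.06 at 55 weeks and 2.04 at 10 weeks. The member that passed was Erap1, an aminopeptidase that trims peptides (1.24 ± 0.23). Psmb8 (chromosome 17, 34197721 to 34201454) encodes an immunoproteasome subunit. Psmb8 was measured at 98.4, 79.2, 63.6, 124 and 105 CPM in the villin-PPARD libraries of 55 weeks, against 3.85, 2.37, 3.03, 2.99 and 3.88 CPM in the wild-type libraries of that age. Psmb8 was at 63.1, 49.9, 35.1, 53.6 and 53.8 CPM in villin-PPARD libraries of 10 weeks, against 2.38, 2.17, 2.76, 3.23 and 2.77 CPM in wild-type libraries. Villin-PPARD values exceeded every wild-type value at each age. Its change of 0.59 ± 0.36 (SE, adjusted p = 0.214) did not pass. Tap1, the peptide transporter, gave a change of 0.00 ± 0.24, and B2m, the class I light chain, 0.30 ± 0.24. Scaled by library totals alone, 5 members had a higher difference, where the shift of all genes was 0.37.

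MHC class II presentation had a median genotype difference of 2.46 at 55 weeks and -0.03 at 10 weeks. Of 10 genes 8 had a higher and 0 a lower difference at 55 weeks, against 18.4% and 18% of all genes. H2-Aa (chromosome 17, 34282744 to 34287823), the class II alpha chain whose promoter is shown above, varied widely among villin-PPARD mice. H2-Aa was measured at 111, 39.3, 45.4, 261 and 201 CPM in the villin-PPARD libraries of 55 weeks, against 22.2, 17.9, 27.4, 23.5 and 24.7 CPM in the wild-type libraries of that age. H2-Aa was at 7.82, 13.2, 12.5, 11.2 and 8.86 CPM in villin-PPARD libraries of 10 weeks, against 6.19, 10.3, 10.9, 16.3 and 18.3 CPM in wild-type libraries. Each villin-PPARD library of 55 weeks exceeded the wild-type ones, from 39.3 to 261 CPM, and the genotypes overlapped at 10 weeks. The change of H2-Aa was 2.70 ± 0.62 (SE, adjusted p = 0.00124). Ciita, the transcriptional activator of class II genes, changed by 3.76 ± 0.88, H2-DMa, which loads peptides, by 3.42 ± 0.84, and H2-Eb1, a beta chain, by 3.24 ± 0.94. Within the second library group 3 of the 10 passed, all higher.

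**Figure D5:**
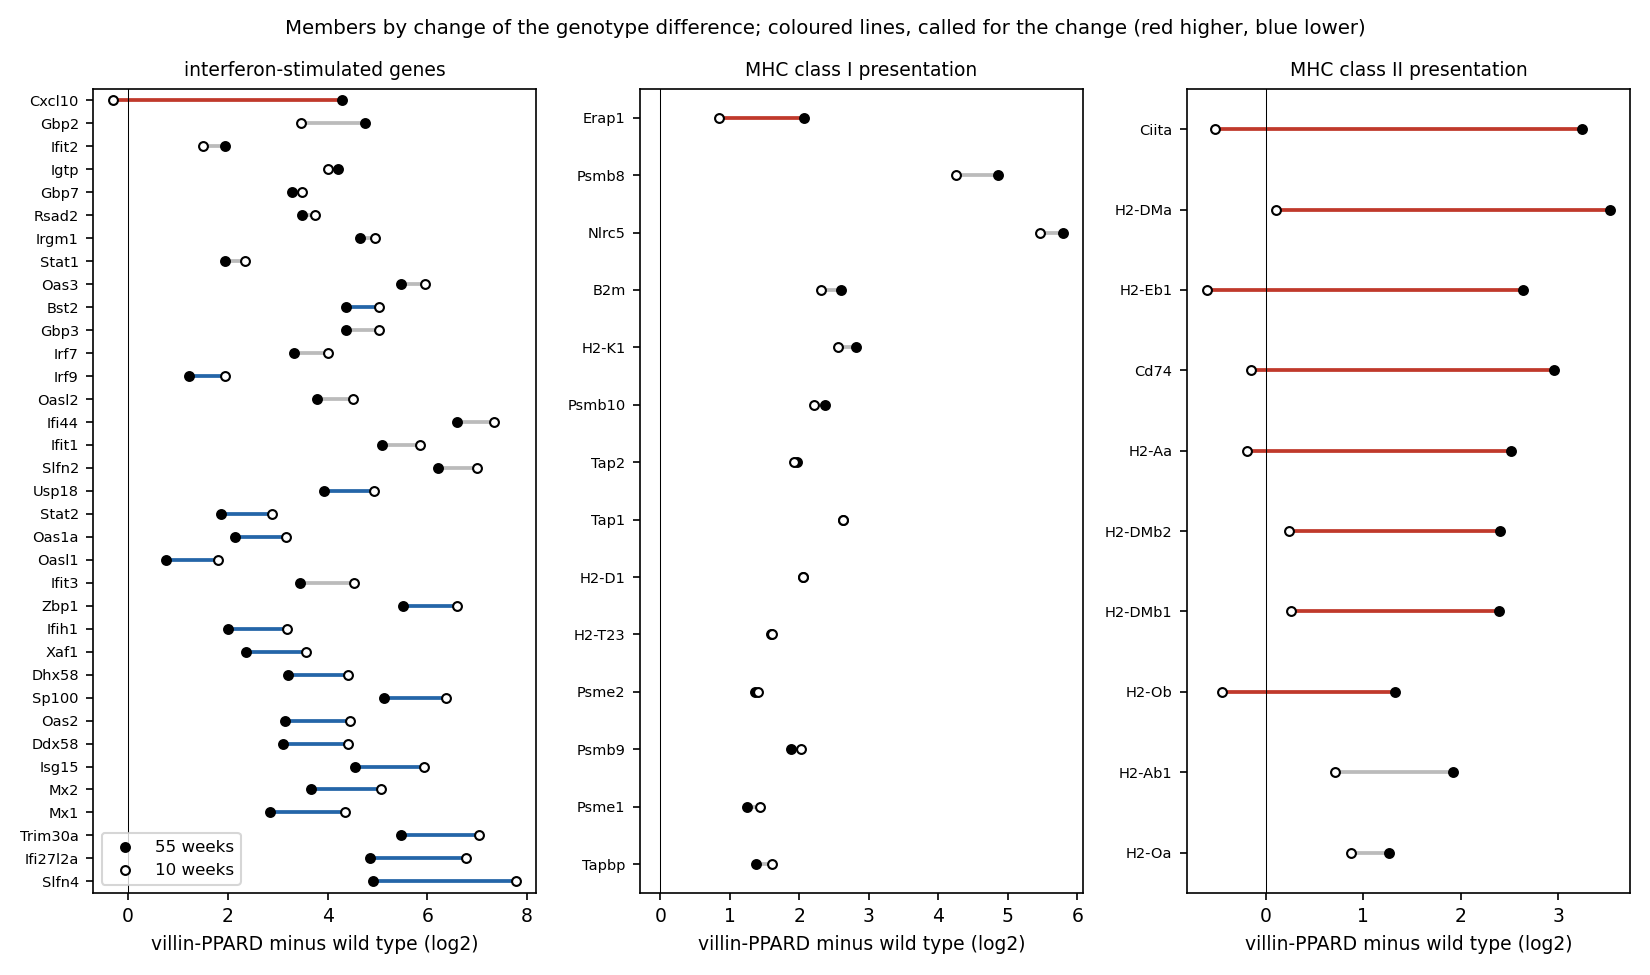
Genotype difference (villin-PPARD minus wild type, log2) of each tested member of 3 lists at 55 weeks, filled points, and at 10 weeks, open points, with coloured lines for members called for the change. Most interferon-stimulated genes lie to the right of 0 at both ages with the open point further out, MHC class I pairs nearly coincide, and MHC class II genes start near 0 at 10 weeks.

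Markers of immune cells rose beside class II. B and plasma cell markers had a higher difference in 4 of 7 tested members, or 2 without wild-type replicate 3 of 10 weeks, with a summed level of 86.6 to 279 CPM in villin-PPARD libraries and 21.2 to 31.8 CPM in wild-type libraries of 55 weeks, and 1.64 to 4.00 CPM in villin-PPARD and 1.73 to 3.61 CPM in wild-type libraries of 10 weeks. Jchain, which joins secreted antibody chains, averaged 174 ± 65.0 CPM in villin-PPARD and 24.5 ± 4.86 CPM in wild-type mice at 55 weeks, and 1.94 ± 0.673 CPM in villin-PPARD and 1.99 ± 0.726 CPM in wild-type mice at 10 weeks (SD, n = 5 each), so it stood higher at 55 weeks in wild-type mice too. T and natural killer cell markers had a higher difference in 6 of 8 tested members. Of all genes 18.4% had a higher difference. A gene high only in villin-PPARD mice of 55 weeks can pass the filter on low counts. The shares of tested lymphocyte markers that rose may therefore partly follow from the filter. The summed level of the 18 listed T and natural killer genes was 11.8 to 38.6 CPM in villin-PPARD libraries and 5.93 to 7.32 CPM in wild-type libraries of 55 weeks, and 2.46 to 4.37 CPM in villin-PPARD and 1.90 to 4.12 CPM in wild-type libraries of 10 weeks. Cd3e, a chain of the T cell receptor complex, averaged 2.55 ± 1.24 CPM in villin-PPARD and 0.594 ± 0.213 CPM in wild-type mice at 55 weeks, and 0.315 ± 0.143 CPM in villin-PPARD and 0.418 ± 0.145 CPM in wild-type mice at 10 weeks (SD, n = 5 each). Myeloid markers had a higher difference in 8 of 21 members, among them Itgam (1.72 ± 0.34), an integrin of myeloid cells, and Lyz2 (1.53 ± 0.46), lysozyme, while the macrophage genes C1qa (0.53 ± 0.38) and Csf1r (0.42 ± 0.34) did not pass. The median over the myeloid list was 0.65, and the same with S100a8, which had 0 counts in villin-PPARD mice of 10 weeks, set to its bound at a floor of 3 counts over the group. Among libraries of the second group 3 B and plasma, 1 T and natural killer and 11 myeloid markers rose. The part of these cells in the class II and cytokine results was not tested. Mast cell proteases diverged: the mucosal proteases Mcpt1 (2.55 ± 0.53) and Mcpt2 (2.12 ± 0.33) rose, while Tpsb2 (-1.83 ± 0.34), Cma1 (-1.32 ± 0.49), Cpa3 (-1.54 ± 0.52) and the receptor gene Kit (-1.69 ± 0.27) fell. With age, 6 of the 8 tested mast cell markers were called higher and 1 lower in wild-type mice. In villin-PPARD mice 4 were called higher and 1 lower with age. Within the second library group 2 mast cell markers had a higher and 1 a lower difference. Of 4 erythroid markers 3 fell, against 18% of all genes, and these calls were lost within the second library group. Few stromal markers passed: 1 of 16 for fibroblasts, 2 of 12 for endothelium and 0 of 11 for smooth muscle, against 36.4% of all genes. The smooth muscle markers had a median change of -0.55. The endothelial receptor gene Tek fell (-2.12 ± 0.55), with genotype differences of 1.80 ± 0.38 at 55 weeks and 3.92 ± 0.40 at 10 weeks, while Pecam1 and Cdh5 of the same list gave -0.18 and 0.16 at 10 weeks. The medians of the mast, fibroblast, smooth muscle and endothelial lists changed sign within the second library group.

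Cytokine, chemokine and acute-phase genes had a higher difference in 14 of 26 and a lower difference in 4, against 18.4% and 18% of all genes. Their median change was 3.14. Pigr (chromosome 1, 130826684 to 130852249) encodes the receptor that carries antibodies across epithelium. Pigr was measured at 6329, 4773, 3952, 7065 and 6519 CPM in the villin-PPARD libraries of 55 weeks, against 27.0, 66.8, 82.5, 35.3 and 65.3 CPM in the wild-type libraries of that age. Pigr was at 30.8, 38.6, 67.4, 46.6 and 62.3 CPM in villin-PPARD libraries of 10 weeks, against 28.9, 54.1, 49.8, 28.7 and 29.9 CPM in wild-type libraries. The villin-PPARD libraries of 55 weeks were at 3952 CPM or more, and all others at 82.5 CPM or less. Its change was 6.34 ± 0.67 (SE, adjusted p = 5.39e-08). Cxcl5 (chromosome 5, 90759360 to 90761624), a chemokine for neutrophils, was close to the floor outside villin-PPARD mice of 55 weeks, with 6646 counts over the villin-PPARD and 8 over the wild-type libraries of 55 weeks, and 12 over the villin-PPARD and 34 over the wild-type libraries of 10 weeks. Its CPM in the villin-PPARD libraries of 55 weeks were 43.6, 26.1, 10.7, 72.9 and 60.3, and its change was 10.15 ± 1.52 (SE, adjusted p = 9.31e-06), with an adjusted p of 0.267 within the second library group. Tnf and Il1b, cytokines of inflammation, changed by 6.21 ± 1.13 and 3.83 ± 0.71. Il33 (chromosome 19, 29925114 to 29960718), an alarm cytokine of barrier epithelium, took the opposite course. Il33 was measured at 86.2, 198, 147, 87.4 and 116 CPM in the villin-PPARD libraries of 55 weeks, against 182, 185, 124, 134 and 122 CPM in the wild-type libraries of that age. Il33 was at 508, 414, 604, 554 and 724 CPM in villin-PPARD libraries of 10 weeks, against 165, 124, 124, 125 and 107 CPM in wild-type libraries. Villin-PPARD libraries lay above all wild-type libraries at 10 weeks and overlapped them at 55 weeks. The difference of Il33 was -0.23 ± 0.23 at 55 weeks and 2.12 ± 0.24 at 10 weeks, and the change was -2.36 ± 0.33 (SE, adjusted p = 3.10e-06). The other members with a lower difference were Il18 (-0.91 ± 0.18), Tslp (-1.69 ± 0.52) and Lif (-1.09 ± 0.36). The NADPH oxidase gene Duox2 did not pass (0.44 ± 0.44) and was higher in villin-PPARD mice by 3.63 ± 0.34 at 55 weeks and 3.19 ± 0.33 at 10 weeks. Among checkpoint genes Vtcn1 (0.77 ± 0.28) rose, in 15 of the 20 fits that left out a library, and Lgals9 (-0.92 ± 0.20) fell, Ctla4 was called higher on 209 counts over the villin-PPARD and 2 over the wild-type libraries of 55 weeks, and 6 over the villin-PPARD and 7 over the wild-type libraries of 10 weeks, and Cd274, the ligand PD-L1, did not pass (0.92 ± 0.42, adjusted p = 0.0843).

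Targets of PPAR receptors did not share 1 course. Of 27 tested genes 14 had a lower and 3 a higher difference at 55 weeks, against 18% and 18.4% of all genes, with a median of -0.47. But when scaled by library totals alone 5 were lower and 6 higher, and within the second library group 3 were lower and 4 higher. Vnn1 (chromosome 10, 23894688 to 23905343), a pantetheinase and known PPAR target, had the most positive genotype difference of the list at both ages. Vnn1 was measured at 523, 505, 475, 562 and 632 CPM in the villin-PPARD libraries of 55 weeks, against 15.9, 7.91, 7.66, 8.19 and 9.23 CPM in the wild-type libraries of that age. Vnn1 was at 65.4, 39.8, 49.0, 86.1 and 64.7 CPM in villin-PPARD libraries of 10 weeks, against 4.41, 5.36, 5.51, 4.12 and 4.37 CPM in wild-type libraries. The genotypes were far apart at both ages. Its difference was 5.77 ± 0.31 at 55 weeks and 3.68 ± 0.30 at 10 weeks, and the change was 2.10 ± 0.40 (SE, adjusted p = 1.44e-04). Plin2, a lipid droplet protein, and Acot1, a thioesterase, also rose, by 1.66 ± 0.31 and 2.46 ± 0.42. The fatty acid uptake gene Cd36 (-3.22 ± 0.28) and the binding protein gene Fabp3 (-4.08 ± 0.34) fell, and Slc27a2, a fatty acid transporter, had 1 count over the villin-PPARD and 155 over the wild-type libraries of 55 weeks, and 115 over the villin-PPARD and 343 over the wild-type libraries of 10 weeks. The classic PPARD targets Pdk4 (0.29 ± 0.39, adjusted p = 0.61) and Angptl4 (0.51 ± 0.37, adjusted p = 0.3) and the oxidation enzyme Cpt1a (-0.30 ± 0.17) did not pass.

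Among 22 cholesterol and fatty acid synthesis genes 12 had a higher and 0 a lower difference at 55 weeks, against 18.4% and 18% of all genes. The higher count was 3 within the second library group and 19 when scaled by library totals alone. The desaturase gene Scd2 (2.68 ± 0.19), the carboxylase gene Acaca (0.81 ± 0.12) and the sterol gene Sqle (0.65 ± 0.18) were among the 12. Respiratory chain genes had median genotype differences of -0.51 at 55 weeks and -0.41 at 10 weeks. Of their 30 members 4 changed downward, Ppargc1a, the activator of mitochondrial genes, most (-1.33 ± 0.25), and 1 upward, the 4 becoming 2 in 7 of the 20 fits that left out a library, while when scaled by library totals alone 8 were higher and 1 lower. Among 16 glycolysis genes 1 fell and 4 rose, no larger a share than the 36.4% of all genes, with Hk2 (2.57 ± 0.25), hexokinase 2, the most positive. Of 30 cytosolic ribosomal protein genes 8 were higher and 0 lower, against 18.4% and 18% of all genes. The count of 8 became 2 without villin-PPARD replicate 1 of 55 weeks and 3 to 5 without wild-type replicate 1, 2 or 3 of 55 weeks, wild-type replicate 4 or 5 of 10 weeks or villin-PPARD replicate 5 of 10 weeks, and all 30 were higher when scaled by library totals alone. Genes of endoplasmic reticulum stress changed in 5 of 20, no larger a share than the 36.4% of all genes, with Atf4 (-0.84 ± 0.14) and Ddit3 (-1.01 ± 0.21), transcription factors of that response, among the 4 that fell. Immediate early genes, which respond to handling, changed in 5 of 16, also near that share, and Fos did not pass (0.07 ± 0.31). The medians of the respiratory chain and endoplasmic reticulum stress lists changed sign within the second library group, and those of the respiratory chain and immediate early lists when scaled by library totals alone.

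Stem cell and Wnt feedback genes divided into 7 higher and 5 lower of 21, against 18.4% and 18% of all genes. Prom1 (2.16 ± 0.18), Myc (1.57 ± 0.18), Ccnd1 (1.47 ± 0.16) and Axin2, a Wnt feedback inhibitor (1.28 ± 0.40), rose. Lgr5, a receptor of Wnt-dependent stem cells that some chief cells also express, fell: it averaged 0.406 ± 0.243 CPM in villin-PPARD and 6.03 ± 1.30 CPM in wild-type mice at 55 weeks, and 5.93 ± 2.01 CPM in villin-PPARD and 7.54 ± 1.63 CPM in wild-type mice at 10 weeks (SD, n = 5 each). Tnfrsf19 and Smoc2, also known from stem and chief cells, changed by -3.27 ± 0.37 and -3.02 ± 0.37. In the epidermal growth factor family 1 of 11 members rose and 1 fell, no larger a share than the 36.4% of all genes. The ligand Ereg (2.10 ± 0.72) rose but lost the call without wild-type replicate 3 of 10 weeks, and the ligand Egf (-2.23 ± 0.49) fell. The receptor gene Egfr did not pass (-0.02 ± 0.33) and stood higher in villin-PPARD mice by 1.24 ± 0.24 at 55 weeks and 1.26 ± 0.24 at 10 weeks. Matrix remodelling genes had a higher difference in 8 of 24 and a lower one in 1, a share near the 36.4% of all genes that changed. Osteopontin, Spp1 (4.20 ± 0.48), was the most positive.

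The lowest adjusted p-values were spread over unrelated functions. C4bp (chromosome 1, 130634773 to 130661632) encodes a protein that restrains complement. C4bp was measured at 96.1, 97.7, 76.7, 122 and 132 CPM in the villin-PPARD libraries of 55 weeks, against 3.40, 2.88, 3.65, 4.75 and 3.38 CPM in the wild-type libraries of that age. C4bp was at 4.16, 5.40, 4.41, 3.95 and 4.29 CPM in villin-PPARD libraries of 10 weeks, against 5.32, 6.26, 6.41, 5.26 and 5.38 CPM in wild-type libraries. All villin-PPARD libraries of 55 weeks were at 76.7 CPM or more and all others at 6.41 CPM or less. Its change was 5.21 ± 0.22 (SE, adjusted p = 2.78e-16). Also low in the upward direction were the chromatin gene Rbbp7 (2.29 ± 0.13), the Wnt receptor gene Fzd1 (2.68 ± 0.15) and the DNA repair gene Brca1 (2.76 ± 0.17), and in the downward direction the gasdermin gene Gsdma2 (-2.77 ± 0.17), the mitochondrial valyl-tRNA synthetase gene Vars2 (-2.39 ± 0.15), Pstpip1 (-3.71 ± 0.24), Hrh2 and Fgfbp1 (-3.17 ± 0.21), a carrier of fibroblast growth factors.

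The most positive changes belonged to genes near the floor in 3 of the 4 groups, whose fitted values are therefore loose. Muc3, a membrane mucin, had 16038 counts over the villin-PPARD and 19 over the wild-type libraries of 55 weeks, and 31 over the villin-PPARD and 59 over the wild-type libraries of 10 weeks, and Mab21l3 had 4017 counts over the villin-PPARD and 9 over the wild-type libraries of 55 weeks, and 1 over the villin-PPARD and 8 over the wild-type libraries of 10 weeks. Adgrg7, an adhesion receptor, Prap1, a secreted protein, Tmem236, the proton channels Otop2 and Otop3 and Lcn2, an iron-withholding lipocalin, followed the same course, with means in villin-PPARD mice of 55 weeks from 11.7 CPM for Lcn2 to 229.8 CPM for Otop3 and no other group mean above 2.36 CPM. Adgrg7 lost the call without wild-type replicate 1 of 10 weeks, Prap1 without replicate 1, 4 or 5 of that group and Lcn2 without replicate 2, 3 or 5. Lactoferrin, Ltf, averaged 739.6 ± 452 CPM in villin-PPARD and 8.80 ± 2.75 CPM in wild-type mice at 55 weeks, and 1.55 ± 1.22 CPM in villin-PPARD and 7.42 ± 6.25 CPM in wild-type mice at 10 weeks (SD, n = 5 each). At the other end, beside the chief cell genes, stood the pancreatic-type phospholipase gene Pla2g1b (-7.15 ± 0.53), the trypsin gene Try10 (-6.84 ± 0.67), the oestrogen receptor gene Gper1 (-5.99 ± 0.64), the neuritin gene Nrn1 (-5.36 ± 0.39), the anchor of acetylcholinesterase, Prima1 (-4.65 ± 0.40), and the potassium channel gene Kcng4 (-4.65 ± 0.40).

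Genes with opposite genotype differences at the 2 ages formed a class of their own, 244 turning upward and 280 downward. Pstpip1 (chromosome 9, 56089962 to 56128888), a cytoskeletal adaptor best known in blood cells, turned downward. Pstpip1 was measured at 7.72, 11.6, 9.47, 6.15 and 5.25 CPM in the villin-PPARD libraries of 55 weeks, against 33.1, 35.5, 33.0, 30.1 and 30.9 CPM in the wild-type libraries of that age. Pstpip1 was at 62.5, 48.5, 37.7, 57.6 and 53.8 CPM in villin-PPARD libraries of 10 weeks, against 15.7, 13, 12.8, 19 and 20.8 CPM in wild-type libraries. Villin-PPARD libraries lay below all wild-type libraries at 55 weeks and above all of them at 10 weeks. Its difference was -2.03 ± 0.17 at 55 weeks and 1.68 ± 0.16 at 10 weeks. Fzd1 (chromosome 5, 4753839 to 4758035) turned upward. Fzd1 was measured at 23.4, 24.6, 25.6, 33.3 and 29.8 CPM in the villin-PPARD libraries of 55 weeks, against 5.71, 6.28, 6.59, 8.06 and 6.46 CPM in the wild-type libraries of that age. Fzd1 was at 5.86, 6.60, 5.83, 6.23 and 6.16 CPM in villin-PPARD libraries of 10 weeks, against 8.18, 10.4, 9.88, 9.48 and 9.83 CPM in wild-type libraries. Villin-PPARD values of Fzd1 exceeded every wild-type value at 55 weeks and fell short of all of them at 10 weeks. The difference of Fzd1 was 2.04 ± 0.11 at 55 weeks and -0.64 ± 0.11 at 10 weeks. Arg1 (chromosome 10, 24915221 to 24927484), arginase of the urea cycle and of some macrophages, also turned upward, on few counts: it had 1950 counts over the villin-PPARD and 33 over the wild-type libraries of 55 weeks, and 5 over the villin-PPARD and 31 over the wild-type libraries of 10 weeks. Arg1 was measured at 12.4, 15.6, 10.0, 15.8 and 12.8 CPM in the villin-PPARD libraries of 55 weeks, against 0.801, 0.517, 0.535, 0.136 and 0.0615 CPM in the wild-type libraries of that age. Arg1 was at 0.126, 0, 0.0445, 0.0439 and 0.0550 CPM in villin-PPARD libraries of 10 weeks, against 0.173, 0.583, 0.424, 0.208 and 0.168 CPM in wild-type libraries, so the genotypes did not overlap at either age. Its difference was 5.03 ± 0.37 at 55 weeks and -2.48 ± 0.75 at 10 weeks.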

How the data were processed

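Polyadenylated RNA was sequenced as 75-bp read pairs with a kit that does not mark strand, per the labels' protocols. The authors deposited HTSeq (0.6.1) read counts per gene symbol, made with TopHat2 (2.0.14) on mm10 per the submitters' processing notes, which also name DESeq2. Neither annotation nor strand setting is given in the sources used here, so reads of overlapping genes on opposite strands, and of near-identical family members such as globin, trypsin or class II genes, may be shared. Total counts of the 20 libraries compared ranged from 12103749 to 30891108, and intervals of fold changes cover mice and counting together.

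Groups follow the labels. Genes were filtered with filterByExpr by group and scaled with TMM, and edgeR (4.0.16) quasi-likelihood F tests with robust dispersion used a model of all 28 libraries with a term for each genotype and age. A gene expressed in a single group can pass that filter, so shares among the tested members of a list can partly follow from it. A call is a Benjamini-Hochberg adjusted p under 0.05 over 15812 genes. Standard errors are the log2 difference over the square root of F. CPM are counts divided by the TMM-scaled library total. Library shares were compared by exact permutation. Gene positions come from GENCODE M21 on GRCm38, promoters from RefSeq. Each library is 1 mouse per the design text, but litters are not given.

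Named genes are a list of 31, the 12 largest and 12 smallest changes among called genes with a mean of at least 10 CPM in a group, an ordinary symbol and 1 sign in every fit that left out a library, the 5 lowest adjusted p per direction, and the 4 lowest adjusted p per list. Some genes that this rule names are not reported here. Other list members are named as examples, chosen after their values were seen. The genes and the 33 lists were chosen with earlier results of these data known, so no list is tested as a set. Of 633 listed genes, 586 were tested. In simulated data with 15339 genes in the test, of genes whose genotype difference changed 4-fold, 2-fold and 1.5-fold the test recovered 98.5%, 64.2% and 22.7%, and 5.34% of calls were false. These were 67, 67 and 66 genes, as many up as down, changed in villin-PPARD libraries of 55 weeks only. All other genes had a common mean over the groups. In the data 36.4% of genes were called, so these rates do not carry over to the 5748 calls. Alternatives were other scalings and filters, only the 4 groups, a replicate block, a library group term, single library groups, DESeq2 (1.42.0), limma-voom (limma 3.58.1), a 2-fold threshold and leaving out each library. A fit without wild-type replicates 2 and 3 of 10 weeks was added after seeing the data.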

Additional observations from a re-analysis of the deposited data

Results flagged for a closer look

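For 2905 genes with a higher and 2843 with a lower difference, the genotype difference changed between the 2 ages by a test of the interaction, gene by gene. The number of such genes was not itself tested. Among the genes whose libraries are given singly, villin-PPARD and wild-type libraries were separated in opposite directions at 55 and 10 weeks for 4. These were Arg1, with a log2 change of 7.51, Fzd1, with 2.68, Muc5ac, with -2.53, and Pstpip1, with -3.71, and each change passed the edgeR quasi-likelihood test.

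A single library stood apart from the other 4 of its group in 5 of the 104 groups of 5 values examined, and about 1 in 20 is flagged by chance. Wild-type replicate 1 of 55 weeks was high for Vil1 at 55.6 CPM and for Vnn1 at 15.9 CPM. Wild-type replicate 1 of 10 weeks was low for Pgc at 59285 CPM and high for Isg15 at 8.87 CPM. Wild-type replicate 4 of 55 weeks was low for Cd44 at 8.92 CPM.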

How the results depend on the processing

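Of the 5748 genes called for the change, 5657 kept their sign when scaled by library totals alone. Within the second library group 5729 of the 5733 tested there did. Of the shared calls 0 had the opposite direction in any alternative, but all alternatives reuse these libraries, so this was likely beforehand. Of 157 named genes called for the change 92 kept the call in all 34 alternatives. The one reversal among named genes was Ppard, at 0.0303 when scaled by library totals alone. That scaling gave 5937 higher, 1519 lower and 4962 genes called at 55 weeks only. Within the second library group 3636 genes were called, 1856 higher and 1780 lower, with 1891 for genotype at 10 weeks, 243 for age in wild-type mice, 239 widened, 188 called at 10 weeks only and 127 turned. That fit has 2 mice per genotype at 10 weeks. A term for library group left 626 genes for age in wild-type mice. A 10-week baseline from the first library group gave 3426 genes for genotype at 10 weeks and 348 widened. A 2-fold threshold left 1271 genes, 605 higher and 666 lower, 2650 and 258 for genotype at 55 and 10 weeks, 2220 and 10 for age in villin-PPARD and wild-type mice, and 4 widened, 1158 called at 55 weeks only, 3 narrowed, 11 called at 10 weeks only, 3 turned and 92 at neither. Limma-voom gave 217 narrowed, 1132 called at 10 weeks only and 825 turned. Without wild-type replicates 2 and 3 of 10 weeks, chosen after seeing the data, there were 5020 genes called, 3345 for genotype at 10 weeks, 1124 for age in wild-type mice, 553 widened, 93 narrowed, 415 called at 10 weeks only and 300 turned. Leaving out 1 library gave 5328 to 5787 genes for the change, and 1203 to 2058 for age in wild-type mice. DESeq2 called 6018 genes and DESeq2 size factors with edgeR 5769. The cause of these shifts was not tested.

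Replicate numbers gave no sign of pairing the mice: same-numbered villin-PPARD and wild-type libraries of an age had correlations of -0.42 to 0.23 in their deviations, and a replicate block called 5608 genes. Pairing by litter was not tested, since litters are not given. At this depth genes near the floor at 10 weeks, such as Lcn2 and Mab21l3, have no firm fold change.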
